A study of Mus musculus with 8 samples.

Results

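The Hippo pathway and the genes driven by its effectors YAP and TAZ with TEAD factors were followed in mouse KPCY pancreatic cancer cells after inhibition of miR-27a. The set holds 37 genes of the 24421 rows in the count table. It was chosen by gene name from the known pathway, with earlier results of these data known. All 37 symbols have a row, Ccn1 as Cyr61 and Ccn2 as Ctgf. Of these, 23 are pathway components (6 effectors, 7 genes of the kinase core and 10 regulators) and 14 are target genes. KPCY cells, labelled male, come from a genetically engineered mouse model of pancreatic cancer with a fluorescent lineage label. The knockdown group is 4 libraries of KPCY cells that stably carry a lentiviral vector inhibiting miR-27a-3p, and the control group is 4 libraries of KPCY cells that carry a scrambled sequence. Puromycin (2 µg/mL over 7 days) had selected both populations. They were cultured with 10% serum and 4.5 g/L glucose and harvested 24 hours after seeding. The labels describe 1 stable population for each vector, so a p-value here measures the spread between cultures of those populations and not between independent transductions. In such bulk RNA, a smaller share of cells expressing a gene and less RNA per cell cannot be told apart.

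In the Hippo pathway, the MST kinases (Stk3, Stk4) with their scaffold Sav1 activate the LATS kinases (Lats1, Lats2) and their MOB1 cofactors, and LATS phosphorylates YAP (Yap1) and TAZ (Wwtr1). Phosphorylated YAP and TAZ are held in the cytoplasm or degraded, while the unphosphorylated proteins enter the nucleus, bind TEAD factors and switch on genes of growth, matrix and adhesion. Several targets, among them Lats2, Amotl2 and Ptpn14, restrain YAP in return, and YAP is known for its role in pancreatic tumours. Messenger RNA levels do not show phosphorylation or location of these proteins.

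Library totals lay between 19165513 and 23542275 counts, and all levels below are CPM, counts scaled to a common library total with trimmed mean of M-values (TMM) factors. Before that scaling, by raw library totals, 3 counts were worth 0.127 to 0.157 CPM. The messenger RNA libraries did not measure mature miR-27a-3p, and the row of its precursor, Mir27a, held 0 counts in 7 libraries and 1 count in the other, which checks nothing about the inhibitor. All 7 epithelial and ductal markers were expressed, with summed levels of 1.07e+04 to 1.17e+04 CPM in the scrambled and 1.14e+04 to 1.17e+04 CPM in the knockdown libraries, and singly 3 of them were higher and 2 lower in the edgeR fit. Summed fibroblast markers were at most 1.43 CPM, with Col1a2, Pdgfrb, Dcn and Lum at 0 in all libraries. Summed immune markers reached at most 4.3 CPM (Adgre1 and Lyz2 at 0), endothelial markers 1.03 CPM and acinar markers 3.98 CPM (Cpa1 and Amy2a5 at 0, and 1 marker lower in the knockdown).

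Of the 37 genes, 36 had enough counts to be tested. Rbms3, an RNA-binding protein gene, was not tested, with 1 to 5 counts in each library. Among the 36, 18 rose and 9 fell in the knockdown cells (edgeR quasi-likelihood test, Benjamini-Hochberg adjusted p under 0.05), and 9 did not pass. Of all 11797 genes tested, 47.9% passed, 23.8% as higher and 24.1% as lower, and the members' counts are read against that background. The 4 knockdown and 4 scrambled values did not overlap for 23 of the 36, against 42.2% of all tested genes. The median log2 fold change was 0.10 over the 36 members and 0.0017 over all tested genes, and the median absolute log2 fold change was 0.141 and 0.133. Most changes were small: 3 members, Wwc2, Ankrd1 and Fjx1, passed a test against a fold of 1.2 (edgeR glmTreat), as did 9.38% of all genes. Of the 27 calls, 19 held in each of the 14 other settings at the same threshold, 14 as higher and 5 as lower.

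**Figure D1:**
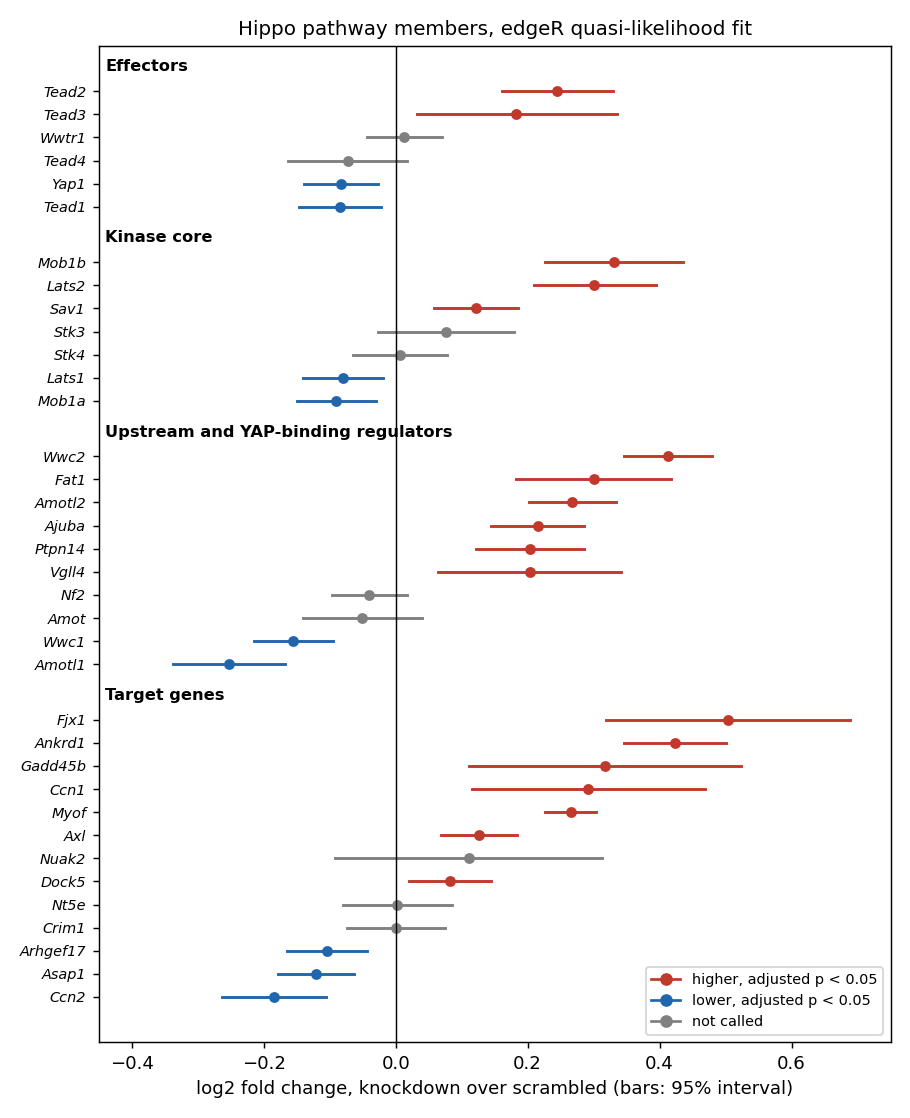
Log2 fold change of each tested member (knockdown over scrambled, x axis), with its 95% interval from the edgeR fit, grouped by role. Fjx1, Ankrd1 and Wwc2 lie farthest to the right at 0.50, 0.42 and 0.41, and Amotl1 lies farthest to the left at −0.25.

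The effectors showed no shared direction. Of the 6, Tead2 and Tead3 rose, Yap1 and Tead1 fell, and Wwtr1 and Tead4 did not pass. Yap1, the YAP coactivator, read 225, 218, 224 and 215 CPM in scrambled replicates 1 to 4 and 213, 202, 205 and 213 CPM in knockdown replicates 1 to 4. Each knockdown value lay below each scrambled value, by a narrow margin, and the log2 fold change was −0.08 (edgeR adjusted p = 0.0152). That call was lost with library totals alone (adjusted p = 0.0896) and without knockdown replicate 2 or 3 or scrambled replicate 1 or 3 (0.0530 to 0.0711). Wwtr1, which encodes TAZ, was 135 ± 2.31 CPM in the knockdown and 133 ± 1.14 CPM in the scrambled libraries (SD, n = 4 each), and its log2 difference of 0.01 had a 95% interval of −0.04 to 0.07.

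Tead2 was the effector gene with the largest difference. It read 44.2, 43.5, 43.2 and 43.1 CPM in the scrambled libraries and 51.5, 53.5, 51.5 and 49.7 CPM in the knockdown libraries. The groups were separate, and the level was 1.19-fold higher (log2 0.24, edgeR adjusted p = 3.13e-05). Tead3 rose from 14.02 ± 0.521 to 15.9 ± 1.34 CPM (SD, n = 4 each), with overlapping groups and an edgeR adjusted p of 0.0421. Tead3 missed the threshold with DESeq2 (0.1), with all genes tested (0.0515), with the replicate block (0.0618), and without knockdown replicate 2, 3 or 4 or scrambled replicate 3 or 4 (0.0543 to 0.185). Without knockdown replicate 4 its log2 fold change was 0.13 in place of 0.18. Tead1 fell from 195 ± 8.66 to 184 ± 3.63 CPM (log2 −0.08, edgeR adjusted p = 0.025), again with overlap. The Tead1 call was lost with library totals alone (0.114) and without knockdown replicate 2, 3 or 4 (0.0607 to 0.0743), and without scrambled replicate 4 the log2 fold change was −0.06 (adjusted p = 0.134). Tead4 did not pass (log2 −0.07, 95% interval −0.16 to 0.02), but did without scrambled replicate 2 (log2 −0.11, edgeR adjusted p = 0.0283).

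Levels of different genes were compared per kilobase of the longest coding transcript. On that scale the scrambled libraries held Yap1 at 52.9 ± 1.18 and Wwtr1 at 28.4 ± 0.244 CPM per kilobase (SD, n = 4). This order depended on the length chosen: over all annotated exons Yap1 was at 23.8 and Wwtr1 at 27.9 CPM per kilobase. Of the summed TEAD level per kilobase, Tead2 made up 22.8 ± 0.606% in scrambled and 26.6 ± 0.594% in knockdown libraries, and the shares did not overlap. Tead1 made up 34.8 ± 1.14% and 32.3 ± 0.915%, Tead4 33.3 ± 1.2% and 31.1 ± 0.669%, and Tead3, the least abundant, 9.01 ± 0.461% and 10 ± 0.863%. The Tead1 and Tead4 shares did not overlap between the groups either, while those of Tead3 did. Shares of a common sum are tied, so a larger Tead2 share lowers the others. Over all exons Tead4 and not Tead1 was the largest, at 38.5% of the scrambled sum, and the Tead2 share went from 21.9% to 25.7%.

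**Figure D2:**
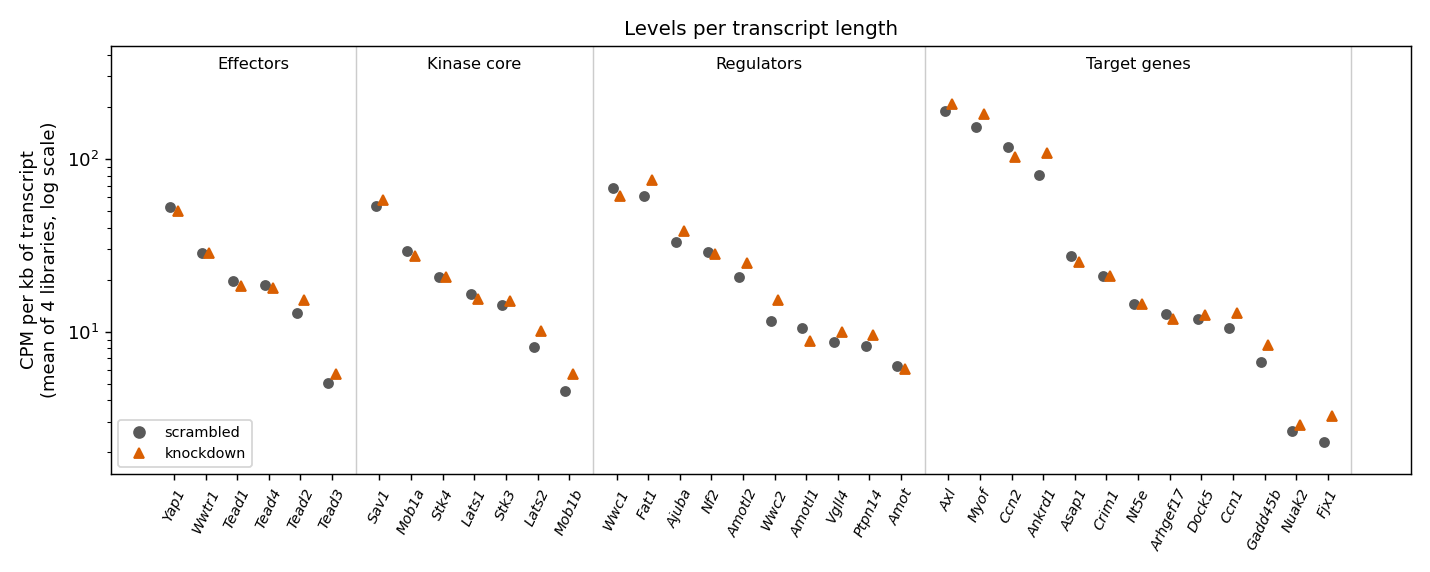
Level of each member per kilobase of its longest coding transcript (CPM per kilobase, log axis) in the scrambled and knockdown libraries. Axl at 190 and Myof at 152 CPM per kilobase are the highest in the scrambled libraries, and Fjx1 at 2.29 is the lowest of the tested members.

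In the kinase core the paralogs less abundant per kilobase, Lats2 and Mob1b, rose and the more abundant ones, Lats1 and Mob1a, fell slightly. Of the 7 genes, Lats2, Mob1b and Sav1 rose, Lats1 and Mob1a fell, and the MST kinase genes Stk3 and Stk4 did not pass. Lats2, a YAP kinase and itself a YAP target, read 42.1, 41.2, 43.6 and 42.5 CPM in the scrambled libraries and 53.4, 53.9, 53.6 and 48.2 CPM in the knockdown libraries. All 4 knockdown values were above all scrambled values, and replicate 4 was the lowest of them. The level was 1.23-fold higher (log2 0.30, SE 0.0447, edgeR adjusted p = 7.69e-06). The Lats2 gene shares 2955 exon bases with Gm49361 on the same strand, so reads from the 2 genes may not be separable.

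Mob1b, a LATS cofactor, read 39.6, 40.2, 38.7 and 43.8 CPM in the scrambled libraries and 54.8, 47.0, 50.2 and 51.9 CPM in the knockdown libraries. The ranges were apart, and the level was 1.26-fold higher (log2 0.33, SE 0.0503, edgeR adjusted p = 1.05e-05). Sav1, the MST scaffold, read 131, 134, 131 and 139 CPM in the scrambled and 152, 140, 144 and 147 CPM in the knockdown libraries, a 1.09-fold higher level (edgeR adjusted p = 0.00232). Its exons overlap Atl1 on the opposite strand over 1336 bases, and the strand setting used for counting is not given in the sources used here. Lats1 went from 118 ± 3.27 to 112 ± 1.06 CPM (log2 −0.08, edgeR adjusted p = 0.0297). The Lats1 call was lost with library totals alone (0.137), with DESeq2 (0.0578), and without knockdown replicate 2, 3 or 4 or scrambled replicate 3 or 4 (0.0527 to 0.118). Mob1a went from 129 ± 3.37 to 121 ± 1.04 CPM (log2 −0.09, edgeR adjusted p = 0.0129), and lost its call with library totals alone (0.0696) and without scrambled replicate 1 (0.0566). The 95% intervals of the log2 differences were −0.03 to 0.18 for Stk3 and −0.06 to 0.08 for Stk4.

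Ratios between paralogs within a library do not depend on scaling between libraries. The log2 ratio of Lats2 to Lats1 counts was −1.45, −1.51, −1.43 and −1.53 in the scrambled and −1.08, −1.06, −1.05 and −1.21 in the knockdown libraries, a difference of 0.38. The ratio of Mob1b to Mob1a was −1.67 ± 0.0954 in the scrambled and −1.25 ± 0.0908 in the knockdown libraries (SD, n = 4 each), a difference of 0.42. The ratio of Wwtr1 to Yap1 differed by 0.10, from −0.73 ± 0.0306 to −0.63 ± 0.0501. In these 3 ratios every knockdown library lay above every scrambled one. That gives the smallest two-sided exact permutation p that 4 against 4 allows, 0.0286, and 0.0381 after Benjamini-Hochberg adjustment over the 4 ratios. Taken singly, 42.2% of all tested genes had groups that did not overlap. Ratios of other gene pairs were not examined, so such separation cannot be called particular to these paralogs. Stk4 to Stk3 differed by −0.07 (exact permutation p = 0.343). Each ratio compares unequal change within a pair and does not say which member moved.

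**Figure D3:**
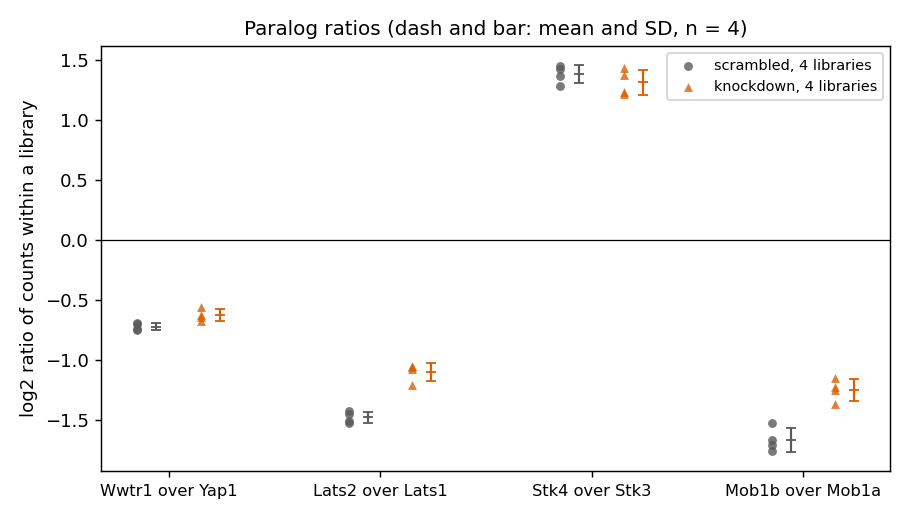
Log2 ratio of the counts of 2 paralogs in each library (y axis) for 4 pairs, with scrambled and knockdown libraries as separate columns of points. The groups are apart for Lats2 over Lats1 (means −1.48 and −1.10), Mob1b over Mob1a (−1.67 and −1.25) and Wwtr1 over Yap1 (−0.73 and −0.63), and overlap for Stk4 over Stk3.

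The inhibited miRNA pairs with messenger RNAs mainly through its seed, bases 2 to 8, and the seed matches of members are shown because miR-27a-3p is the molecule that was inhibited. The mature sequence (RefSeq, GRCm38.p6, chr8:84208727-84208747, plus strand) has the seed in capitals, and the 4 messenger RNA windows (GENCODE M21, GRCm38, sense strand of the gene) have the seed match in capitals.
mmu-miR-27a-3p: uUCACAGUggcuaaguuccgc
Mob1b, chr5:88763734-88763741: catgctgcctcACTGTGAAttcatgtgtgt
Lats2, chr14:57691036-57691042: tataaggactgACTGTGAgaaaccatgctg
Amotl1, chr9:14544058-14544064: aggaggagatgACTGTGAcacaaggtgtct
Wwc1, chr11:35839110-35839116: tgtgaaggctgACTGTGActaatgttattt
Matches were sought on the sense strand of the longest 3′ UTR of each gene as ACTGTGA (7mer-m8), CTGTGAA (7mer-A1) or the 8mer that holds both, and each gene was put in its strongest class. Mob1b was the member with an 8mer. The 7mer-m8 class held 7 tested members, of which Tead2, Lats2 and Ptpn14 rose and Lats1, Wwc1, Amotl1 and Asap1 fell. The 7mer-A1 class held Amotl2, which rose, Tead1 and Arhgef17, which fell, and Stk4, which did not pass. Of the 24 tested members with no such match, 13 rose and 3 fell. Among all 11342 tested genes with a 3′ UTR, 6.38% had an 8mer, 11.3% a 7mer-m8 and 11.8% a 7mer-A1, with 8000 in no class. Of those genes, 197 of 724 with an 8mer rose and 166 fell, 329 of 1282 with a 7mer-m8 rose and 322 fell, 345 of 1336 with a 7mer-A1 rose and 323 fell, and 1862 with none rose and 1994 fell. A match is a description of letters and not a shown site, and the median 3′ UTR was longer with a match (2467 bases for the 8mer class) than without (871).

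Among the 10 regulators, 6 rose, 2 fell and 2 did not pass, with a median log2 fold change of 0.20. Of all tested genes, 23.8% rose and 24.1% fell, with a median of 0.0017. Wwc2, a paralog of the KIBRA scaffold that acts upstream of LATS, read 98.1, 102.7, 100.7 and 96.4 CPM in the scrambled libraries and 134.8, 137.4, 126.7 and 130.9 CPM in the knockdown libraries. The gap between the groups was wider than the range inside either, and the level was 1.33-fold higher (log2 0.41, SE 0.0323, edgeR adjusted p = 5.09e-10, and 0.000235 against a fold of 1.2). Wwc2 shares 995 exon bases with Cldn22 on the opposite strand, and Fat1 shares 487 with the antisense gene Gm2366. Wwc1, which encodes KIBRA, moved the other way, from 307 ± 14.7 to 276 ± 4.07 CPM (SD, n = 4 each; log2 −0.15, edgeR adjusted p = 0.000128). Per kilobase, Wwc1 stayed the more abundant paralog, at 60.8 against 15.3 CPM per kilobase in the knockdown cells.

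The angiomotins, junction proteins that bind YAP, diverged as well. Amotl2 read 89.3, 88.8, 90.2 and 88.3 CPM in the scrambled libraries and 108.2, 106.4, 111.7 and 103.2 CPM in the knockdown libraries. All knockdown values were higher (log2 0.27, edgeR adjusted p = 3.66e-07). Amotl1 read 98.2, 84.7, 96.3 and 97.0 CPM in the scrambled libraries and 78.4, 82.1, 79.1 and 76.4 CPM in the knockdown libraries. It was 1.19-fold lower (log2 −0.25, SE 0.0414, edgeR adjusted p = 2.79e-05), and scrambled replicate 2 was the control nearest to the knockdown range. Amot did not pass (log2 −0.05, 95% interval −0.14 to 0.04).

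Fat1, an atypical cadherin upstream of the pathway, read 933, 727, 981 and 986 CPM in the scrambled libraries and 1143, 1127, 1076 and 1119 CPM in the knockdown libraries. The groups were separate, but scrambled replicate 2 was well below the other controls. The level was 1.23-fold higher (log2 0.30, SE 0.0568, edgeR adjusted p = 0.000144), and the log2 fold change was 0.21 (adjusted p = 2.54e-14) without scrambled replicate 2. Ajuba, a LIM protein that binds and inhibits LATS, rose from 113 ± 4.83 to 131 ± 4.78 CPM (log2 0.22, edgeR adjusted p = 2.04e-05). Ptpn14, a phosphatase that binds YAP, rose from 89.2 ± 5.32 to 103 ± 3.91 CPM (log2 0.20, edgeR adjusted p = 0.000191). Vgll4, which competes with YAP for TEAD, rose from 17.6 ± 1.29 to 20.2 ± 1.08 CPM (log2 0.20, edgeR adjusted p = 0.0153), and missed the threshold without knockdown replicate 1 (0.0621) or scrambled replicate 1 (0.0615). Nf2, which encodes Merlin, did not pass (log2 −0.04, 95% interval −0.10 to 0.02). Over all 23 components, 11 rose and 6 fell with TMM scaling, and 11 rose and 2 fell with library totals alone. The split over all tested genes tilted the same way with library totals alone, to 3339 higher and 2376 lower, against 2804 and 2841 with TMM.

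**Figure D4:**
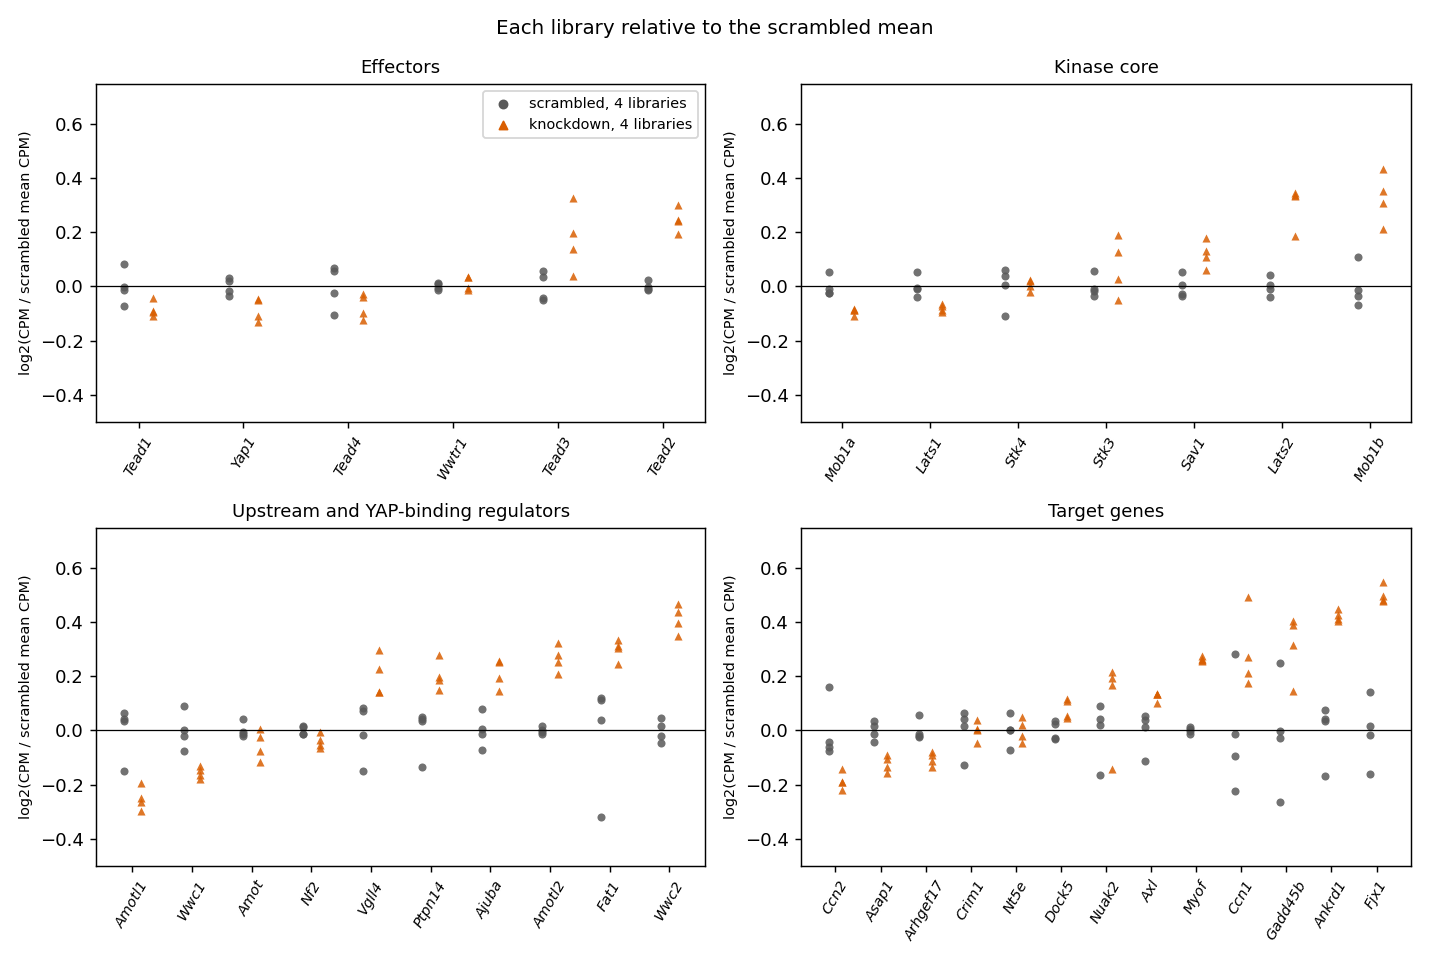
Level of each member in each of the 8 libraries as log2 of CPM over the scrambled mean (y axis), in 4 panels by role, with scrambled and knockdown libraries marked separately. The knockdown points of Wwc2, Ankrd1 and Fjx1 lie above all their scrambled points, and the low scrambled point of Fat1 is replicate 2.

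The target genes were not moved in 1 direction. Of the 13 tested, 7 rose, 3 fell and 3 did not pass, with a median log2 fold change of 0.11, beside 23.8% higher and 24.1% lower of all tested genes. Ankrd1, an ankyrin repeat protein and one of the most used YAP readouts, read 167, 145, 172 and 168 CPM in the scrambled libraries and 219, 216, 217 and 223 CPM in the knockdown libraries. Knockdown values were tightly grouped and all higher, at 1.34-fold (log2 0.42, SE 0.0372, edgeR adjusted p = 3.57e-09, and 0.000518 against a fold of 1.2). The CCN genes, which encode matricellular proteins and are read as YAP outputs beside Ankrd1, went in opposite directions. Ccn2 read 282, 324.5, 275 and 278 CPM in the scrambled libraries and 254, 263, 249 and 254 CPM in the knockdown libraries. Ccn2 was lower in all 4 (log2 −0.18, SE 0.038, edgeR adjusted p = 0.000359), with a log2 fold change of −0.13 without scrambled replicate 2. Ccn2 shares 665 exon bases with Gm15270 on the opposite strand. Ccn1 read 20.9, 18.1, 19.8 and 25.7 CPM in the scrambled libraries and 29.7, 25.5, 24.5 and 23.8 CPM in the knockdown libraries. Its groups overlapped through scrambled replicate 4, and the log2 fold change of 0.29 passed the test (SE 0.0854, edgeR adjusted p = 0.00721, 0.0487 without knockdown replicate 1).

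The TEAD recognition core GGAATG, read on both strands (CATTCC on the other), was sought in promoters of 300 bases, 250 before and 50 after the annotated start (RefSeq, GRCm38.p6). Of the 37 genes, 28 have a promoter in the table, and Tead1, Tead4, Stk3, Ccn2, Arhgef17, Fjx1, Asap1, Dock5 and Nuak2 have none. At least 1 promoter held the motif in 16 of the 28 (57.1%), in 12 of 20 components and in 4 of 8 targets, against 4481 of 27025 genes overall (16.6%) and 4817 of 32851 promoters (14.7%). The 4 promoters below belong to the largest riser among the regulators, to 2 classical targets and to Yap1 itself, each on the minus strand and printed in the direction of transcription with the motif in capitals.
Ankrd1, chr19:36119795-36120094: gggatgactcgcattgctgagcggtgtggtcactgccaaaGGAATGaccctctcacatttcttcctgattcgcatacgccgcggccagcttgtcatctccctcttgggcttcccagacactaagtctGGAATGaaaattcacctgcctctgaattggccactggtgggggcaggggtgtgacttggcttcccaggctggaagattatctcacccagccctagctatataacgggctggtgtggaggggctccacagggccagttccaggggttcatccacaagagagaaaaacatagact
Ccn1, chr3:145649936-145650235: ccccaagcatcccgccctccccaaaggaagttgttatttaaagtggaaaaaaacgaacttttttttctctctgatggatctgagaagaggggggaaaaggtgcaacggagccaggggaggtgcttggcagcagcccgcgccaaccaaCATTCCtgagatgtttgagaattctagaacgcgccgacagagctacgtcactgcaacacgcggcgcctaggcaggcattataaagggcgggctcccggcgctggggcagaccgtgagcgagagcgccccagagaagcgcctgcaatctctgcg
Wwc2, chr8:47990495-47990794: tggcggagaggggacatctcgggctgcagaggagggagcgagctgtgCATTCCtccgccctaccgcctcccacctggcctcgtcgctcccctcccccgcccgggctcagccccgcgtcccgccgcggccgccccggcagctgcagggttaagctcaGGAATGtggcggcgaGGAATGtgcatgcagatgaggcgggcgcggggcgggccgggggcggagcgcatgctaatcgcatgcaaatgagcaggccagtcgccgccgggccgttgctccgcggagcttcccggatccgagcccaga
Yap1, chr9:8004547-8004846: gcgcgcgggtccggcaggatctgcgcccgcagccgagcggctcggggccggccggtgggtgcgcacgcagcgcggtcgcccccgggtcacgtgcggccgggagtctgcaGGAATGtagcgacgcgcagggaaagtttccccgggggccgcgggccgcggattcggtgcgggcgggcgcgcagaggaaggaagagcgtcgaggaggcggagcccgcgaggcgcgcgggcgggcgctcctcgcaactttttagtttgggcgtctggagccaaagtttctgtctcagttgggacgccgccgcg
The Ankrd1 promoter held the motif at −210 and −123 from the start, that of Yap1 at −141, that of Ccn1 on the other strand at −103, and that of Wwc2 at −94, at −79 and, on the other strand, at −203. Some of the searched windows lie inside the gene as annotated in GENCODE M21, and may not be its main promoter. Among them are the printed windows of Wwc2 (to 47990794, gene to 47990924) and Ankrd1 (to 36120094, gene to 36120099). Those of Fat1 (window from 44949958, gene from 44935447), Lats2, Amotl2 and Vgll4, also with the motif, and Amotl1 without it lie inside the gene too. Each of the named genes with the motif rose, so the count of risers below rests partly on such windows. Of the 16 members with the motif, 12 rose, 2 (Yap1 and Mob1a) fell and 2 (Wwtr1 and Crim1) did not pass. Of the 11 tested members with a listed promoter and no motif, 4 (Tead2, Mob1b, Gadd45b and Myof) rose and 3 (Lats1, Wwc1 and Amotl1) fell. Among all tested genes the motif did not go with such a split: 25.4% of the 1321 genes with it rose and 25.5% fell, against 23.2% and 23.6% of the 8053 without it. These counts are descriptions, with no test. The members were listed as known pathway genes, with earlier results of these data known.

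Myof, which encodes the membrane protein myoferlin, gave the smallest adjusted p of the members. It read 1082, 1070, 1087 and 1076 CPM in the scrambled libraries and 1293, 1294, 1290 and 1306 CPM in the knockdown libraries, with almost no spread inside either group. The log2 fold change was 0.26 (SE 0.0187, edgeR adjusted p = 8.64e-11). Fjx1, the four-jointed homologue, had the largest fold among the members at a low level: 7.91, 7.25, 7.07 and 6.41 CPM in the scrambled and 9.98, 9.99, 10.1 and 10.5 CPM in the knockdown libraries. The groups were apart, at 1.42-fold (log2 0.50, SE 0.0889, edgeR adjusted p = 6.63e-05, and 0.0184 against a fold of 1.2). Axl, a receptor tyrosine kinase and the most abundant member per kilobase, rose from 811 ± 42.1 to 884 ± 9.18 CPM (log2 0.13, edgeR adjusted p = 0.000676).

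Gadd45b, a stress-response gene, rose from 8.57 ± 1.25 to 10.7 ± 0.848 CPM (log2 0.32, edgeR adjusted p = 0.0116), with overlap, and missed the threshold without scrambled replicate 1 (log2 0.24, adjusted p = 0.0516). Dock5, a Rac exchange factor gene, rose by 0.08 on the log2 scale (edgeR adjusted p = 0.027), and lost its call with DESeq2 (0.0513) and without knockdown replicate 2 or 4 or scrambled replicate 3 (0.0785 to 0.0904). Besides Ccn2, the targets that fell were Asap1, an Arf GTPase-activating protein gene (169 ± 3.93 to 155 ± 3.17 CPM, log2 −0.12, edgeR adjusted p = 0.00096), and Arhgef17, a guanine nucleotide exchange factor gene (130 ± 3.45 to 121 ± 2.06 CPM, log2 −0.10, edgeR adjusted p = 0.00551). Crim1, a transmembrane protein gene, and Nt5e, which encodes the ecto-nucleotidase CD73, did not pass, with 95% intervals of the log2 difference of −0.07 to 0.07 and −0.08 to 0.09. Nuak2, an AMPK-related kinase gene, did not pass either, with a wider interval of −0.09 to 0.31. Counting the YAP-restraining targets Lats2, Amotl2 and Ptpn14 with the targets gave 10 higher and 3 lower of 16, median 0.17, and left 8 higher and 6 lower of 20 components, median 0.01. All 3 genes had risen, so moving them could only add risers to the targets and take risers from the components.

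Some members lie on chromosomes whose other genes were shifted in the same direction. Wwc2 and Fat1 lie on chromosome 8, where the median log2 fold change of the other 645 tested genes was 0.21, and the gene of miR-27a lies there too. Mob1b lies on chromosome 5, with a median of 0.14 over its other 760 tested genes, and Ankrd1 and Myof lie on chromosome 19, with a median of 0.11 over 410. Lats2 and Ajuba rose on chromosome 14, where the median was −0.06, Amotl2 rose on chromosome 9, where it was −0.09, and Tead2 and Axl rose on chromosome 7, where it was −0.06. The rise of Sav1 by 0.12 on the log2 scale was close to the chromosome 12 median of 0.10 over its other 404 tested genes. The fall of Yap1 by 0.08 on the log2 scale was close to the chromosome 9 median of −0.09, and that of Mob1a by 0.09 close to the chromosome 6 median of −0.11. Tead1 and Arhgef17 fell by 0.08 and 0.10 on chromosome 7, in the direction of its median. The part of the chromosome-wide shift in these changes was not tested.

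**Figure D5:**
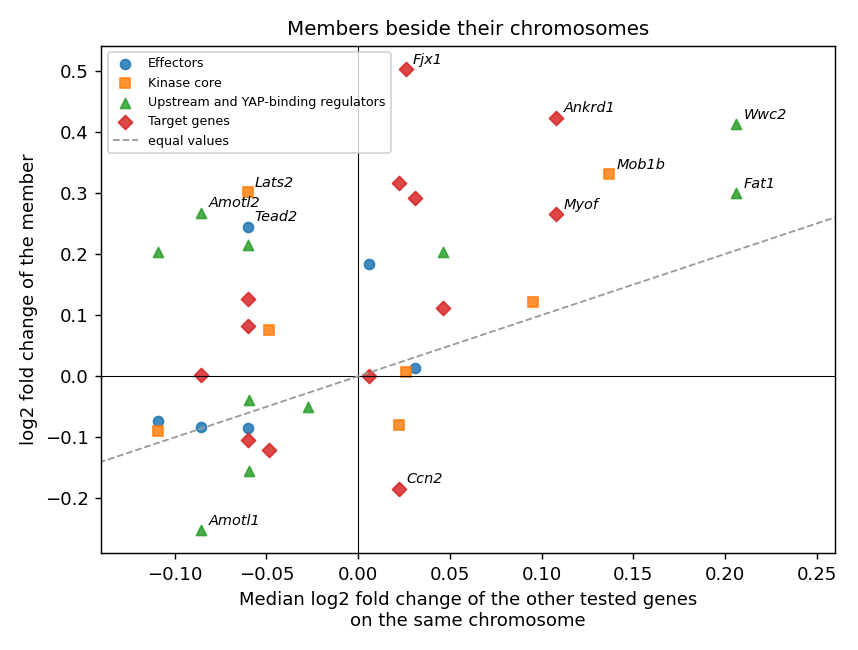
Log2 fold change of each tested member (y axis) against the median log2 fold change of the other tested genes on its chromosome (x axis). Wwc2 and Fat1 lie at the right, at a chromosome 8 median of 0.21, and Lats2, Amotl2 and Tead2 lie above 0 although their chromosome medians are below 0.

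Other genes of the pathway, listed by name beside the members, were read in the same fit. Of 38 other regulators, 33 were tested, and 14 rose, 7 fell and 12 did not pass, with a median log2 fold change of 0.07. Over all tested genes, 23.8% rose and 24.1% fell, with a median of 0.0017. Among those that rose, Csnk1e, a casein kinase gene, had a log2 fold change of 0.24 (edgeR adjusted p = 6.33e-06) and the polarity scaffold gene Patj one of 0.24 (2.01e-05). Among those that fell were the polarity genes Scrib, at −0.18 (7.4e-06), and Dlg5, at −0.10 (0.0055), and the kinase gene Map4k1, at −0.49 (0.00199). The TEAD cofactor genes Vgll1 and Vgll3 were at 0 counts in all libraries. Of 20 other genes known as YAP-TEAD targets, 17 were tested and all 17 passed in edgeR, 11 higher and 6 lower. Over all tested genes 47.9% passed. The median absolute log2 fold change was 0.519 for these 17, 0.126 for the 13 tested member targets and 0.133 over all tested genes. Because the list was chosen with earlier results of these data known, its full pass says nothing about YAP-TEAD targets as a class. DESeq2 called 13 of these other targets (9 higher, 4 lower), and leaving out single libraries gave 14 to 17. Igfbp3, a binding protein of insulin-like growth factors, went from 102.5 ± 8.88 to 201 ± 5.17 CPM (SD, n = 4 each; log2 0.97, edgeR adjusted p = 1.11e-14). Thbs1, a matrix glycoprotein gene, had a log2 fold change of 0.81 (4.98e-11), and the tissue factor gene F3 one of 0.52 (1.97e-11). Those that fell included Slit2 at −0.64 (1.63e-07), the transglutaminase gene Tgm2 at −0.52 (2.06e-08) and the mitotic gene Birc5 at −0.27 (8.09e-08).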

How the data were processed

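RNA of 8 cultures was sequenced as paired-end reads of 59 bases from a stranded messenger RNA kit, per the labels' protocols. The authors deposited 1 table of raw counts per gene. The submitters' processing notes name bcl2fastq 2.20, Bowtie, STAR, DESeq2 1.36.0, R 4.2.1 and build mm10 without roles, and which tool, annotation and strand setting produced the counts is not given in the sources used here. Of 24421 row symbols, 23309 matched a current and 667 an older symbol. Counts were fitted with edgeR 4.0.16 in R 4.3.3 (TMM, filterByExpr with a minimum count of 10 and total of 15, quasi-likelihood test, 11797 genes, Benjamini-Hochberg adjustment over all of them, threshold 0.05, knockdown over scrambled). The model had group as its only term. The procedure was tested on simulated counts with 50 genes changed at each fold, far fewer than were called here. It recovered 24.5% of changes of 1.1-fold, 56% of 1.2-fold, 88% of 1.5-fold and 100% of 2-fold, and called 10 of 11537 unchanged genes. The Benjamini-Hochberg adjustment is stricter when fewer genes change, so these rates need not hold for the fit of the real counts. A member that did not pass may still differ by a small fold. Paralog ratios were tested by exact permutation (scipy 1.17.1). Alternatives were DESeq2 1.42.0, other scalings and filters, a replicate block, a fold test at 1.2 and leaving out each library. All 37 members are named, and of each list of other genes the 3 with the smallest adjusted p in each direction, except 1 that is not reported here. Members and lists were chosen with earlier results of these data known. Intervals and floors cover counting error or the spread between these cultures. The 27 date-like symbols and the 8403 genes at 0 in all libraries gave no member.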

Additional observations from a re-analysis of the deposited data

Results flagged for a closer look

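In each of the 104 groups of 4 libraries examined, the library standing farthest from the rest was tested by its gap to the nearest other as a share of the group's range (Dixon's test, 95% critical value). A gap this wide arises by chance in about 1 in 20 groups, and 8 were found. In the scrambled group, replicate 2 stood apart for Amotl1 (84.7 CPM against 96.3 to 98.2), Ptpn14 (81.2 against 91.3 to 92.2) and Ccn2 (324 against 275 to 282), and replicate 4 for Arhgef17 (135 against 127 to 128). In the knockdown group, replicate 4 stood apart for Lats2 (48.2 CPM against 53.4 to 53.9), Axl (871 against 889 in each of the others), Nuak2 (7.47 against 9.26 to 9.58) and the mitotic gene Birc5 (141 against 136 to 137). Scrambled replicate 2 also differed most from its group over all genes: the chi-square between libraries, divided by the genes compared, was 5.17 to 5.35 in its pairs, against 1.8 to 2.35 in the other scrambled pairs and 1.73 to 1.95 in the knockdown pairs.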

How the results depend on the processing

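Against a fold of 1.2, 1107 genes were called (584 higher, 523 lower), with 1 component (1 higher, 0 lower), 2 targets (2 higher, 0 lower), 0 other regulators (0 higher, 0 lower) and 8 other targets (6 higher, 2 lower); for those regulators edgeR's test without the fold called 14 higher and 7 lower. With library totals alone, 3339 genes were higher and 2376 lower, and 2 components were lower. Leaving out single libraries gave 3 to 7 lower components and 5116 to 6004 calls over all genes. DESeq2 called 5031 genes, 15 components, 9 targets and 13 other targets. Replicate numbers did not pair the libraries: deviations of same-numbered libraries correlated between −0.04 and 0.02. With the replicate block, 5533 genes were called (2762 higher, 2771 lower), 16 components and 10 targets, and Tead3 lost its call (adjusted p = 0.0618). A sign-flip of pairs with the replicate block left the paralog differences at 0.096 for Wwtr1 over Yap1, 0.382 for Lats2 over Lats1 and 0.419 for Mob1b over Mob1a, each with an adjusted exact p of 0.167, where 0.125 is the smallest unadjusted p possible. Leaving out single libraries gave 0.0734 to 0.113, 0.365 to 0.418 and 0.385 to 0.464, where the smallest exact p is 0.0571. Signs turned for 3 genes that never passed: Stk4 (−0.0268 to 0.0296 leaving out single libraries), Crim1 (−0.0392 to 0.0217, and −0.000186 without the low-count filter) and Nt5e (−0.0196 to 0.0242). Of 504 values of members under the other settings, 461 kept direction and side of the threshold, 34 lost the call, 1 gained it and 8 turned sign. The causes were not tested. Among the tested members, the 95% intervals were widest for the low genes Gadd45b, Nuak2 and Fjx1.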
